A study of Mus musculus with 36 samples.

Results

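The MHC class II genes are followed here through the hippocampus of young and old mice and through RNA pulled down with the tagged ribosomes of Cx3cr1-expressing cells. They are 7 genes chosen by symbol from the 36172 gene entries of the deposited count table: the invariant chain Cd74, the chains H2-Aa, H2-Ab1 and H2-Eb1, the peptide-exchange subunits H2-DMa and H2-DMb1, and the transactivator Ciita. In mm10, as deposited, H2-Ab1 (34263227 to 34269418), H2-Aa (34282751 to 34287771, minus strand), H2-Eb1 (34305867 to 34316674), H2-DMa (34135671 to 34138535) and H2-DMb1 (34153191 to 34160229) lie on chromosome 17, Ciita on chromosome 16 (10480072 to 10527564) and Cd74 on chromosome 18. All 36 libraries came from Cx3cr1-NuTRAP mice of both sexes, in which tamoxifen activates a cre driven by Cx3cr1 and the recombined cells carry GFP on their ribosomes. Cx3cr1 is active in microglia and also in other macrophages, so the tag is not limited to microglia by its promoter. Whole-tissue RNA (input) was sequenced for 3 groups. The young early-induced group had 5 females and 5 males, the old early-induced group 7 females and 5 males, and the old late-induced group 5 females and 2 males. The protocol in the labels gives ages of 6 and 22 months, and the age at which early or late induction was done was not given in the sources used here. From the same 7 old late-induced animals, ribosomes were also captured with an anti-GFP antibody and the RNA on them sequenced (TRAP, for translating ribosome affinity purification). TRAP libraries of the early-induced groups were not analysed here. The series asked whether the age at induction changes how well microglial RNA is isolated and how well age differences are detected.

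MHC class II molecules display peptides from engulfed proteins to CD4+ T cells. An alpha and a beta chain, H2-Aa with H2-Ab1 in the A molecule and H2-Eb1 as the beta chain of the E molecule, assemble around the invariant chain CD74, lysosomal proteases cut CD74 down to a short peptide, and the DM heterodimer exchanges that peptide for antigen. Ciita does not bind DNA itself and is recruited by factors sitting on the X and Y boxes of class II promoters. In healthy brain, class II is low in microglia and is better known from border macrophages, dendritic cells and B cells, including those of the choroid plexus and meninges.

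The promoters of 3 members are shown because the data bear on genes that moved together and on their transactivator. RefSeq windows from 250 bases before the start were matched for 4 of the 7 members, H2-Aa, H2-Eb1, H2-DMb1 and H2-DMa (build GRCm38.p6). Each run below is read 5′ to 3′ on the gene's strand and covers 105 to 26 bases before the RefSeq start. For H2-Aa that start is 34287823, not the deposited 34287771. The H2-DMa window that held the Y box letters, not printed, begins at 34125268, where the deposited gene begins at 34135671. Capitals mark a script's matches on either strand to an X box pattern (AG, any base, AAC, any base, GATG), to the palindrome TGACGTCA, and to the Y box letters GATTGG, whose reverse complement is printed where the match is on the other strand.
H2-Aa, chromosome 17, 34287849 to 34287928, minus strand: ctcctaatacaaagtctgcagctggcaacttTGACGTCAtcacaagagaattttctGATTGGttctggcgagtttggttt
H2-Eb1, chromosome 17, 34305762 to 34305841, plus strand: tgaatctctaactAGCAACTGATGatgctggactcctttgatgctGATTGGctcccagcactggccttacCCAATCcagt
H2-DMb1, chromosome 17, 34153086 to 34153165, plus strand: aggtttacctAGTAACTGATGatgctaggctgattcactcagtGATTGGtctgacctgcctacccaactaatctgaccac
The X and the Y match were 21 bases apart in H2-Eb1 and 22 in H2-DMb1, and 17 bases lay between the palindrome and the Y match in H2-Aa. Of all 32851 RefSeq windows of the same length, 16.1% held the Y letters, 0.298% the X letters, 1.79% the palindrome, and 0.0548% both X and Y. The Y letters were found in all 8 class II genes that had a window and the X letters in 3 of them, H2-Eb1, H2-DMb1 and H2-Eb2. None of the 3 motifs overlapped another in the runs shown, and a match is a description of letters, not of a bound site.

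Values are given as CPM, a gene's estimated count divided by the library's total in M counts, and those totals ranged from 12.9 to 20.4 M. In all libraries H2-DMa was listed at 0, and so were 3476 of 22013 protein-coding entries, among them Cct6a, a chaperonin subunit that every cell uses. H2-DMa is therefore only reported as listed at 0, and 6 members remain. All 6 passed the filter on low counts in each fit. Markers of neurons summed to 7240 to 8582 CPM and those of hippocampus to 407 to 531 CPM in the inputs. Xist and Ddx3y counts matched the sex labels in all 36 libraries.

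The inputs fell into 2 classes by RNA of the choroid plexus, the tissue in the ventricle beside the hippocampus. Ttr, its most abundant marker, lay between 1561 and 3848 CPM in 15 inputs while 14 inputs had 22.8 to 153.8 CPM, with no value in between. Ttr was over 1000 CPM in 6 of 10 young, 4 of 12 old early-induced and 5 of 7 old late-induced inputs. The sum of 6 choroid plexus markers ran from 48.9 to 3177 CPM in young, from 48.5 to 4203 in old early-induced and from 49.1 to 3580 in old late-induced inputs, and no marker was at 0 throughout a group. In the young and the old early-induced group Cd74 was higher in every high-Ttr than in any low-Ttr input. In the old late-induced group it was not, with 12.3 to 22.0 CPM at high Ttr and 10.8 and 64.7 CPM at low Ttr, and Ciita did not rise with Ttr in young inputs (medians 1.40 CPM at high and 1.58 at low Ttr). The members' age comparisons are therefore also given within the Ttr classes, which was not done for the other gene lists or for the interaction of age and sex. The part of choroid plexus RNA in the results was not tested beyond those values. The share of all genes that divided by Ttr as Cd74 did was not computed.

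TRAP against input in the 7 old late-induced animals asks which class II RNAs were on the tagged ribosomes. The invariant chain, all 3 classical chains and H2-DMb1 were 9.5- to 13.1-fold higher in TRAP in the edgeR fit, while Ciita was not called. That is 5 of 6 members higher, where 30.4% of the 14596 genes tested were called higher and 59.2% were called in either direction (edgeR, adjusted p under 0.05). The members' median log2 difference was 3.63 and that of all genes was -0.02. This fit held sex and did not pair TRAP with the input of the same animal, so its SEs include the spread between animals. The fit with the animal as replicate block is given with the other processing alternatives.

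Cd74, which chaperones new class II dimers, had 10.8, 14.5 and 64.7 CPM (lowest, median, highest) in the inputs and 92.4, 134 and 960 CPM in TRAP. Its groups did not overlap, and animal 3 was the highest in both. The log2 difference was 3.60 ± 0.55 (SE, edgeR adjusted p = 2.9e-05), and 2.84 without the TRAP library of animal 3.

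H2-Aa, the alpha chain of the A molecule, had 2.31, 3.87 and 11.4 CPM in the inputs and 14.02, 44.1 and 189 CPM in TRAP. H2-Ab1, its beta chain, had 2.85, 4.39 and 12.96 CPM against 23.4, 47.6 and 206 CPM. H2-Eb1 had 3.07, 5.38 and 10.7 CPM against 12.2, 47.9 and 140 CPM. For all 3 chains the highest library was animal 3 and the lowest animal 4 in both fractions, and the fractions did not overlap. The log2 differences were 3.66 ± 0.50, 3.69 ± 0.45 and 3.25 ± 0.44 (SE), with edgeR adjusted p of 7.8e-06, 2.5e-06 and 8.5e-06.

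H2-DMb1 was the most even member. It had 2.24, 4.16 and 5.65 CPM in the inputs and 37.6, 41.6 and 69.9 CPM in TRAP, a log2 difference of 3.71 ± 0.21 (SE, edgeR adjusted p = 1.0e-10). H2-DMb1 has a close copy, H2-DMb2, and reads of the pair could be divided between them in the authors' counting. H2-DMb2 was far lower, at 2.50 to 8.81 CPM in TRAP, and differed by 3.68 ± 0.26 (SE, edgeR adjusted p = 2.3e-09). Together, TRAP and input CPM did not overlap for 5 of the 6 members, against 16% of all genes tested that did not overlap in that direction.

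Ciita was low in both fractions, at 0.351, 0.751 and 1.23 CPM in the inputs and 0.589, 1.05 and 1.84 CPM in TRAP, which is 6 to 34 counts a library. The fractions overlapped. The log2 difference was 0.74 ± 0.32 (SE, edgeR adjusted p = 0.057), and leaving out single libraries gave adjusted p from 0.018 to 0.15, under 0.05 in 4 of 14 fits: without the input of animal 1 or 6 and without the TRAP library of animal 1 or 4.

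**Figure D1:**
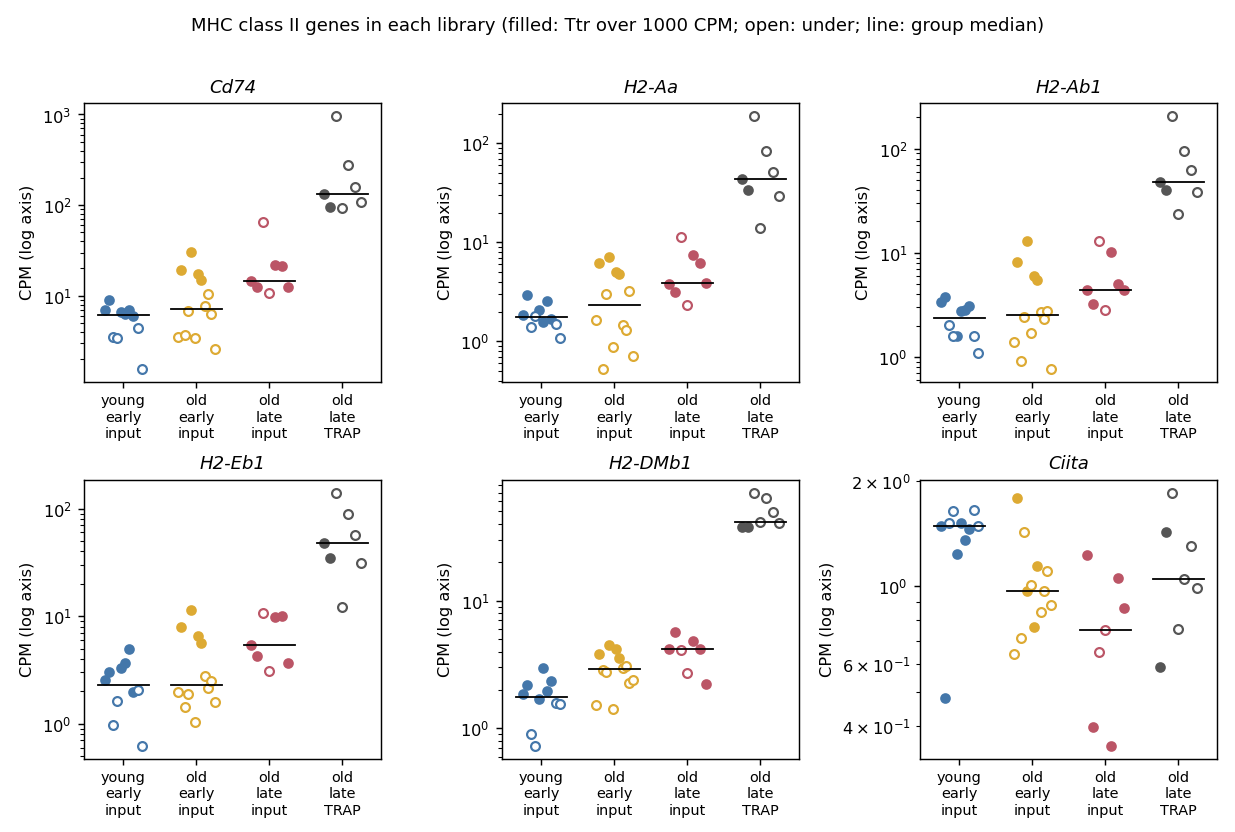
CPM of 6 MHC class II genes (log axis) in each library of the 4 groups, with a line at the group median, filled points where Ttr was over 1000 CPM and open points where it was under. TRAP lies above every input of the old late-induced group for all genes but Ciita, and the old early-induced inputs divide by their Ttr.

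Set against the length of each gene's principal GENCODE transcript, the median level in TRAP was 94.8 CPM per kb for Cd74, 39.3 for H2-Ab1, 39.1 for H2-Aa, 29.6 for H2-DMb1, 28.7 for H2-Eb1 and 0.175 for Ciita. The ranges of all neighbours in that order overlapped (Cd74 65.5 to 681, H2-Ab1 19.3 to 170.0, H2-Aa 12.4 to 168, H2-DMb1 26.8 to 49.8, H2-Eb1 7.30 to 83.8 CPM per kb) down to Ciita, whose highest value was 0.307.

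The ratio of TRAP to input within an animal was taken on log2 CPM plus 0.5. For Cd74 it was 3.16, 2.90, 3.88, 3.04, 3.62, 2.88 and 3.08 in animals 1 to 7. It was above 0 in all 7 animals for each called member, with medians of 3.22 for H2-Aa, 3.31 for H2-Ab1, 2.94 for H2-Eb1 and 3.59 for H2-DMb1. Ciita lay between -0.67 and 1.10. Over the 12 microglia markers the mean ratio was 3.77 to 4.17. Each of the 6 members lay below that mean in 7 of 7 animals, Cd74 by 0.29 to 1.10 on the log2 scale. The added 0.5 CPM shrinks the ratios of members at low CPM more than those of markers at higher CPM. Small gaps, such as 3.90 for H2-DMb1 (2.24 CPM in input) against 4.04 in animal 7, may depend on it. Cd74 per unit of Cx3cr1 was lower in TRAP than in the input of the same animal in all 7 animals, for example 0.227 against 0.318 in animal 1 and 1.19 against 1.52 in animal 3.

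Markers of the other class II-bearing cells that the tissue could hold were measured in the same way. The 8 border macrophage markers had a mean ratio of 3.11 to 3.47, near that of the class II genes other than Ciita. The added 0.5 CPM affects this likeness. In the edgeR fit the median log2 difference was 3.83 for these markers and 3.63 for the members. All 8 markers were called higher, where 30.4% of all genes were, with a sum of 377 to 622 CPM in TRAP and none at 0. The 7 dendritic cell markers summed to 18.9 to 28.5 CPM in TRAP and 13.2 to 16.6 in input. Of 5 tested, 2 were called higher and 1 lower, where 30.4% of all genes were called higher and 28.8% lower. B and plasma cell markers summed to 4.23 to 5.35 CPM in TRAP and 0.825 to 5.25 in input, with 1 of 2 tested called higher and 1 lower. Most of the TRAP sum was Cd79b, a B cell receptor subunit, at 3.91 to 4.80 CPM against 0.118 to 0.496 in input, while the joining chain Jchain was lower at -1.98 on the log2 scale. Ms4a1 was at 0 in all 7 TRAP libraries and Igkc was listed at 0 in the whole series. T cell markers summed to 3.24 to 5.11 CPM in TRAP and to 2.58 to 5.91 in input. The part of border macrophages and dendritic cells in the class II signal was not tested.

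**Figure D2:**
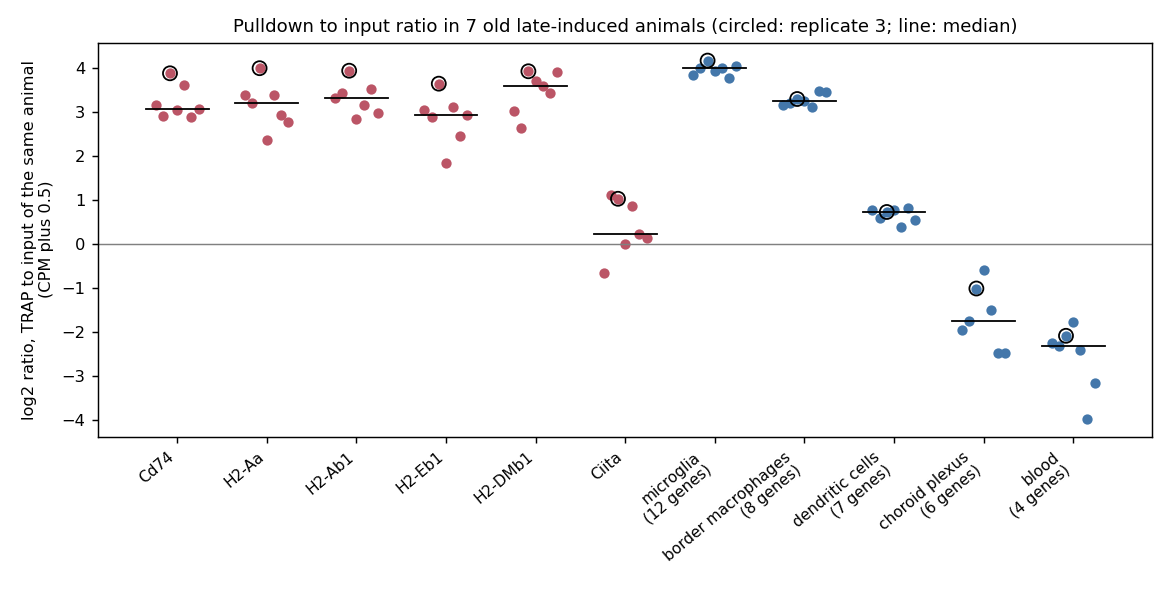
Log2 ratio of TRAP to input in each of the 7 old late-induced animals (points, on CPM plus 0.5) for 6 class II genes and for the mean of 5 marker lists, with the median as a line and animal 3 circled. Class II genes other than Ciita lie between 1.83 and 4.00, under the microglia list and around the border macrophage list.

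Animal 3, a female with 59.3 CPM of Ttr in its input, stood apart for class II in both fractions. Its Cd74 reached 64.7 CPM in input, where the other 6 animals had at most 22.0, and 960 CPM in TRAP, where they had at most 277. Its Cx3cr1 was also the highest in TRAP, at 808 CPM in a group that started at 556, and its microglia sum was 12900 CPM against 9011 in the lowest library. The T cell receptor component Cd3e was at 0.743 CPM (13 counts) in its input and at most 0.183 CPM in the other inputs of the group, and Cd8a was highest there as well, at 1.03 CPM. Cd3d was not, at 0.286 CPM against 0.403, 0.427 and 0.333 in animals 4, 6 and 7. The 7 T cell markers together summed to 5.91 CPM in its input, the highest of a group that started at 2.58. These values rest on few counts, and whether they bear on its class II level was not tested.

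**Figure D3:**
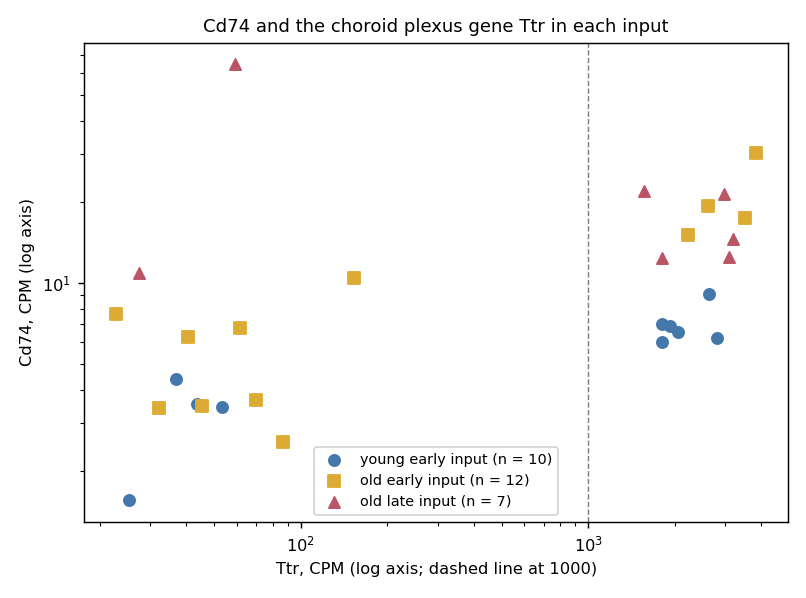
Cd74 against Ttr in each of the 29 inputs (CPM, both axes log), by group, with a dashed line at 1000 CPM of Ttr. Within the young and within the old early-induced group, inputs right of the line have more Cd74 than those left of it. Animal 3 of the old late-induced group is the triangle at 64.7 CPM of Cd74 and 59.3 CPM of Ttr.

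Old early-induced against young inputs asks how class II in whole hippocampus differed with age when induction was early. H2-DMb1 alone was called of the 6 members, 1.6-fold higher, where 25.6% of the 14948 genes tested were called and 13% were called higher. The members' median log2 difference was 0.68, and that of all genes was 0.01. In bulk RNA, more cells of a type and more RNA per cell cannot be told apart.

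H2-DMb1 had 0.728, 1.77 and 2.99 CPM (lowest, median, highest) in young and 1.41, 2.91 and 4.47 CPM in old early-induced inputs. The groups overlapped, and the log2 difference was 0.72 ± 0.21 (SE, edgeR adjusted p = 0.013). It was 0.44 in females alone (adjusted p = 0.21) and 0.63 at low Ttr (adjusted p = 0.16), which ends the call.

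Cd74 had 1.55, 6.13 and 9.05 CPM in young and 2.56, 7.20 and 30.3 CPM in old early-induced inputs. The old group held both lower and much higher libraries than most of the young. The log2 difference was 0.91 ± 0.39 (SE, edgeR adjusted p = 0.084). The 4 old inputs at 15.03 to 30.3 CPM were exactly those with Ttr over 1000 CPM, while the 8 at low Ttr had 2.56 to 10.4 CPM. The young inputs divided at the same line, with 6.04 to 9.05 CPM at high and 1.55 to 4.38 CPM at low Ttr.

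Within high Ttr, 6 young against 4 old early-induced inputs, Cd74 was 1.50 ± 0.22 higher on the log2 scale (SE, edgeR adjusted p = 0.00076). H2-Aa had 1.58 to 2.98 CPM in these young and 4.75 to 7.08 CPM in these old inputs, H2-Ab1 1.58 to 3.76 against 5.50 to 12.9 CPM, and H2-Eb1 1.96 to 4.91 against 5.62 to 11.3 CPM. All 3 were called, at 1.47 ± 0.26, 1.43 ± 0.32 and 1.37 ± 0.32 (SE, edgeR adjusted p = 0.0025, 0.0087 and 0.010), and so was H2-DMb1 at 0.79 ± 0.24 (adjusted p = 0.034). That made 5 of 6 members higher, where 6.18% of genes were called higher and 7.57% lower in this class.

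Within low Ttr, 4 young against 8 old early-induced inputs, no member was called, where 4.04% of genes were called higher and 4.11% lower. Cd74 differed by 0.35 ± 0.48, H2-Aa by -0.05 ± 0.53, H2-Ab1 by 0.12 ± 0.45 and H2-Eb1 by 0.23 ± 0.37 on the log2 scale (SE, edgeR adjusted p from 0.73 to 0.97). Whether the age difference itself differed between the Ttr classes was not tested. With the choroid plexus score as a covariate over all inputs, Cd74, H2-Eb1 and H2-DMb1 were called, at 0.99, 0.79 and 0.86 (adjusted p = 0.034, 0.033 and 0.00023), where 16% of genes were called higher.

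Other markers moved with these libraries too. Old early-induced input 5 had the highest value of every classical chain, Cd74 and H2-DMb1 in its group, and also a blood marker sum of 2308 CPM, where the group's median was 250.8, and a monocyte and neutrophil sum of 15.1 CPM against a median of 2.87. Without it, the log2 difference of Cd74 was 0.64 and that of H2-Ab1 0.39. The 4 old high-Ttr inputs had meninges and fibroblast sums of 393 to 479 CPM against 91.9 to 146.6 in the other 8, and border macrophage sums of 32.7 to 44.6 against 27.3 to 35.9. None of the 8 border macrophage markers was called between the age groups, where 13% of all genes were called higher and 12.6% lower. The part of these cells in the class II levels was not tested.

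Old late-induced against young inputs gave the widest class II difference among the inputs. The 2 groups differ both in age and in early or late induction, and these cannot be told apart in this comparison. The 5 members that were enriched in TRAP were all called higher, 2.2- to 4.2-fold, and Ciita was called lower. In the same comparison 34.5% of genes were called, 17% higher and 17.5% lower. The members' median log2 difference was 1.47, and that of all genes was 0.01. This comparison and the one before it share the 10 young inputs, so their values are set side by side and not counted as separate support.

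Every old late-induced input had more Cd74 than the young maximum of 9.05 CPM, with 10.8 CPM as the lowest, 14.5 as the median and 64.7 as the highest. The log2 difference was 2.08 ± 0.43 (SE, edgeR adjusted p = 0.00047), and 1.54 without animal 3. It was the one member whose groups did not overlap, where 2.86% of all genes were higher without overlap.

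H2-Aa, at 2.31 to 11.4 CPM against 1.08 to 2.98 CPM in young, differed by 1.63 ± 0.40 on the log2 scale. H2-Ab1, at 2.85 to 12.96 against 1.08 to 3.76 CPM, differed by 1.50 ± 0.43, and H2-Eb1, at 3.07 to 10.7 against 0.620 to 4.91 CPM, by 1.45 ± 0.41 (SE, edgeR adjusted p = 0.0024, 0.0075 and 0.0071). Each chain overlapped the young group in its lowest old libraries. H2-DMb1, at 2.24 to 5.65 against 0.728 to 2.99 CPM, differed by 1.15 ± 0.24 (SE, edgeR adjusted p = 0.00037). No library left out in turn ended any of these calls.

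Ciita went the other way. It had 0.481, 1.49 and 1.65 CPM in young and 0.351, 0.751 and 1.23 CPM in old late-induced inputs, and 9 of 10 young inputs were at or above 1.23 CPM. The log2 difference was -0.89 ± 0.25 (SE, edgeR adjusted p = 0.007). In the old early-induced inputs Ciita had 0.641, 0.9704 and 1.79 CPM, a log2 difference of -0.43 ± 0.21 from young (adjusted p = 0.12), and without young input 2, the low one, that difference was called at -0.53 (adjusted p = 0.042). All these values rest on 6 to 27 counts a library.

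Within high Ttr, 6 young against 5 old late-induced inputs, the same 5 members were called higher, where 8.59% of genes were called higher and 9.01% lower. Cd74 differed by 1.24 ± 0.19, H2-Aa by 1.22 ± 0.24, H2-Ab1 by 0.91 ± 0.29, H2-Eb1 by 1.04 ± 0.28 and H2-DMb1 by 0.93 ± 0.21 (SE, edgeR adjusted p from 0.00045 to 0.039). Ciita was not called there, at -0.68 ± 0.36 (adjusted p = 0.20). Within low Ttr, 4 young against 2 old late-induced inputs, Cd74, H2-Ab1 and H2-Eb1 were called at 2.98, 2.15 and 1.95, where 6.18% of genes were called higher and 6.21% lower. Those 2 inputs were far apart, at 64.7 CPM of Cd74 in animal 3 and 10.8 CPM in animal 4. With the choroid plexus score as a covariate the calls were 5 higher and 1 lower, Cd74 at 2.13, where 17.8% of genes were called higher and 17.5% lower.

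Markers of several cell types were higher in the old inputs as well. The 12 microglia markers summed to 393.6 to 454 CPM in young, 497 to 601 in old early-induced and 541 to 759 in old late-induced inputs, and none was at 0. Of these, 11 were called higher in the old early-induced and 12 in the old late-induced inputs, with median log2 differences of 0.34 and 0.44. Over all genes 13% and 17% were called higher. In old late-induced against young inputs the 4 blood markers were all called higher, with a median of 1.47, equal to that of the members, and so were 5 of 5 oligodendrocyte markers, with a median of 0.47. Of the border macrophage markers Ms4a7 was called higher at 1.24 and Lyve1 lower at -0.96, and the 1 B and plasma cell marker tested, Jchain, was called at 2.05. Of the other lists in that comparison, 2 of 5 astrocyte, 1 of 6 endothelium, 1 of 5 dendritic cell and 1 of 2 T cell markers were called higher. No choroid plexus, meninges and fibroblast, monocyte and neutrophil, neuron or hippocampus marker was. Of the last 2 lists, 1 of 5 and 3 of 6 were called lower. The part of any of these cell types in the class II difference was not tested. Cd74 per unit of Cx3cr1 ran from 0.0564 to 0.369 in young, from 0.0698 to 0.796 in old early-induced and from 0.247 to 1.52 in old late-induced inputs, so all 3 groups overlapped.

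**Figure D4:**
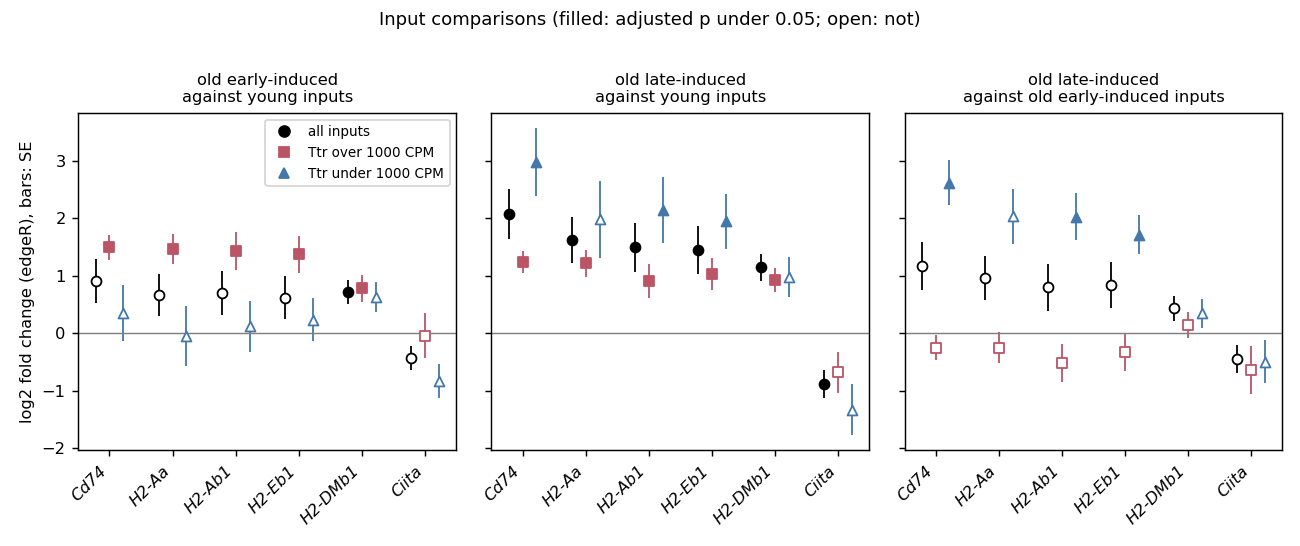
Log2 fold change (edgeR) with its standard error for 6 class II genes in 3 input comparisons, over all inputs and within the 2 Ttr classes, filled where the adjusted p was under 0.05. In old early-induced against young inputs the classical chains lie at 1.37 to 1.50 with Cd74 at high Ttr and between -0.05 and 0.35 at low Ttr.

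Old late-induced against old early-induced inputs compares the age at induction in animals of the same age. Of the 6 members none was called, and only 0.0334% of the 14948 genes tested were (5 genes by edgeR, 58 by DESeq2, 1736 at an unadjusted p under 0.05). By direction 0.0268% were called higher and 0.00669% lower, and 0.00669% were higher without overlap, none of them a member. With the choroid plexus score as a covariate 0.0468% were called higher, again with 0 of 6 members. The log2 differences were 1.17 ± 0.41 for Cd74, 0.96 ± 0.38 for H2-Aa, 0.80 ± 0.41 for H2-Ab1, 0.83 ± 0.40 for H2-Eb1, 0.43 ± 0.22 for H2-DMb1 and -0.45 ± 0.25 for Ciita (SE, edgeR adjusted p from 0.26 to 0.49).

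The sign of the estimates was not the same in the 2 Ttr classes, and the difference between the classes was not tested. At high Ttr, 5 late against 4 early inputs, the differences were -0.26 ± 0.22 for Cd74, -0.25 ± 0.27 for H2-Aa, -0.52 ± 0.33 for H2-Ab1 and -0.34 ± 0.32 for H2-Eb1 (SE, edgeR adjusted p from 0.92 to 0.95). At low Ttr, 2 late against 8 early inputs, Cd74, H2-Ab1 and H2-Eb1 were called at 2.63 ± 0.39, 2.03 ± 0.41 and 1.72 ± 0.35 (SE, edgeR adjusted p = 0.0017, 0.021 and 0.021), where 0.396% of genes were called higher and 0.271% lower. Animal 3 is 1 of those 2 late inputs. In females alone Cd74 and H2-Eb1 were called at 1.80 and 1.53 (adjusted p = 0.025 and 0.033), where 52 of 14862 genes were called higher and 130 lower, and Ttr was over 1000 CPM in 3 of 5 late but 1 of 7 early females.

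Sex made no called difference to any member in the inputs, where 0.174% of genes were called, 0.0468% higher and 0.127% lower in males. The log2 differences of males from females ran from -0.03 for H2-DMb1 to 0.40 ± 0.34 for H2-Ab1 (SE, edgeR adjusted p = 0.67 for the latter). The interaction of age and sex in the 22 early-induced inputs called 0% of genes by edgeR (2301 genes at an unadjusted p under 0.05, and 13 genes by DESeq2). The 6 choroid plexus markers had a median of 2.89 in the same interaction, with 0 of 6 called. The largest estimate among the members was 1.95 ± 0.67 for H2-Eb1 (SE, edgeR adjusted p = 0.22). It was called without old early-induced input 6 (2.23, adjusted p = 0.044), a fit in which 453 genes were called.

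Other class II genes outside the 7 were measured with them. H2-Oa and H2-Ob, which form the inhibitor of DM, were 4.14 ± 0.25 and 4.01 ± 0.26 higher in TRAP on the log2 scale (SE, edgeR adjusted p = 3.3e-10 and 6.5e-10). Both were called higher in old than in young inputs. H2-Oa was higher by 1.45 ± 0.31 in the old early-induced and 1.65 ± 0.34 in the old late-induced group, and H2-Ob by 1.06 ± 0.30 and 1.55 ± 0.32 (SE, edgeR adjusted p from 0.00045 to 0.0088). H2-Oa had 2 to 8 and H2-Ob 2 to 14 counts a library in young inputs, so their age differences rest on few counts. An entry overlapping H2-Oa, BC051537, had up to 28.5 counts, so the values of H2-Oa are uncertain. H2-Eb2 had at most 4 counts in any library, and the entry for H2-Ea-ps, the E alpha pseudogene, was listed at 0 throughout.

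Of the factors that bind class II promoters (Rfx5, Rfxap, Rfxank, Nfya, Nfyb, Nfyc, Creb1), 3 of 7 were called higher in TRAP and 1 lower, where 30.4% of all genes were higher and 28.8% lower. Nfya, a Y box factor subunit, was higher by 1.28, Rfx5 and Rfxank, subunits of the X box factor, by 0.26 and 0.19, and Nfyb was lower at -0.49 (log2, edgeR adjusted p from 1.1e-08 to 0.021). In old late-induced against young inputs 0 were called higher and 1 lower, Nfya at -0.20 (edgeR adjusted p = 0.012), where 17.5% of all genes were lower.

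The interferon gamma pathway drives Ciita in many cells. Ifng itself was above 0 in 1 of 36 libraries. Of 7 genes of the pathway tested, 6 were called higher in TRAP, against 30.4% of all genes, led by the receptor chain Ifngr1 at 3.09 and Irf1 at 1.59. Against young inputs, 1 of 7 was called higher in old early-induced inputs, Ifngr1 at 0.20, and 2 in old late-induced inputs, among them Ifngr1 at 0.36 (log2, edgeR adjusted p = 0.011 and 0.00013). Of all genes 13% and 17% were called higher, so the 1 of 7 is near the background.

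Genes of antigen and invariant chain processing were also higher. All 6 genes tested were called higher in TRAP, with a median of 3.12, among them cathepsin S (Ctss, 4.11), which cuts the invariant chain, and the thiol reductase Ifi30 (3.73). In the inputs 5 of 6 were called higher in the old early-induced and 6 of 6 in the old late-induced group, against 13% and 17% of all genes, at medians of 0.29 and 0.55, Ctss by 0.74 and 1.01 (log2, edgeR adjusted p = 1.3e-08 and 3.0e-10). Sppl2a, which clears the last invariant chain fragment, was listed at 0.

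Costimulatory and T cell contact genes were higher in TRAP for 7 of 7 tested, with Lag3, a class II ligand, at 4.24 and Cd86 at 4.01. In old late-induced inputs 4 of 5 tested were called higher than in young, Lag3 at 1.00, Icam1 at 0.79, Cd86 at 0.70 and Cd274 at 0.40 (log2, edgeR adjusted p from 1.7e-08 to 0.049). In old early-induced inputs 1 of 5 was, Lag3 at 0.79. Over all genes the shares called higher were 30.4% in TRAP, 17% in old late-induced and 13% in old early-induced inputs. Of 3 genes that control class II turnover by ubiquitination, Cd83 and the ligase Marchf8 were called higher in old late-induced inputs, at 0.31 and 0.20, where 17% of all genes were. In TRAP and in old early-induced inputs 2 of the 3 were called higher as well, where 30.4% and 13% of all genes were. None of the genes in these 6 lists was called between the 2 induction ages, where only 0.0334% of all genes tested were.

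The members also varied together from library to library. After the group means were removed from log2 CPM of the 29 inputs, Pearson's r between Cd74, H2-Aa, H2-Ab1 and H2-Eb1 was 0.853 to 0.927 over their 6 pairs. H2-DMb1 correlated with those at 0.474 to 0.683, and Ciita with the other members at -0.13 to 0.0915. These are descriptions over libraries that share the Ttr split. Among 14699 genes the 5 most like Cd74 by this measure were H2-K1, a class I heavy chain, at 0.852, Ninj1 at 0.819, Ahnak at 0.806, Syde1 at 0.804 and Nfe2l2 at 0.793. That order did not hold within the Ttr classes. Over the 15 inputs at high Ttr H2-K1 was at 0.651, Ninj1 at 0.731, Ahnak at 0.716, Syde1 at 0.594 and Nfe2l2 at 0.660, and over the 14 at low Ttr they were at 0.772, 0.714, 0.569, 0.721 and 0.784.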

How the data were processed

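PolyA RNA of mouse hippocampus was sequenced. The authors deposited a table of estimated counts for 36172 gene entries in 36 libraries, marked raw per the file headers. Of the nonzero values 76.6% were not whole (tolerance 0.001). Aligner, counter and strand handling are not given in the sources used here. The submitters' processing notes name mm10 and DESeq2 with no role. Groups, sex and animals came from the labels. Each input has its own animal number.

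Counts were rounded and tested with edgeR 4.0.16 (filterByExpr minimum count 10, TMM, glmQLFit, glmQLFTest) in R 4.3.3, with Benjamini-Hochberg adjustment over all genes tested and calls at adjusted p under 0.05. TRAP was fitted on 14 libraries with sex, the inputs on 29 with group and sex, and the interaction on 22. The SE of a log2 difference is its size over the root of the F statistic. Fits were tested on simulated data. TRAP and input of an animal are paired: their deviations from group means correlated at 0.368 to 0.53 in all 7 pairs, against a median of -0.101 between different animals. No 2 libraries of a group agreed within sampling noise (chi-square per degree of freedom 3.66 to 47.4). Alternatives were DESeq2 1.42.0, limma 3.58.1, other scalings, no filter, sex handling, the Ttr classes and each library left out. The named genes are the 7 members, the listed pathway and marker genes and the 5 genes most like Cd74. Members and lists were chosen with earlier results of these data known, and the Ttr classes after seeing the data. Promoters were read from RefSeq. The values of some single genes of the lists are not reported here.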

Additional observations from a re-analysis of the deposited data

Results flagged for a closer look

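In a gap test of the highest and lowest library of each group of 4 to 10 libraries, 5 of 24 tests passed the critical value, where chance alone gives about 1.2. Animal 3 of the old late-induced group accounted for 4 of the 5. These 4 come from 1 animal in genes that varied together, so they are not separate events to set against the chance figure. Its Cd74 was 64.7 CPM in input, with the next animal at 22.0, and 960 CPM in TRAP, with the next at 277. Its H2-Aa was 189 CPM in TRAP, with the next at 83.4, and its H2-Ab1 206 CPM, with the next at 95.3. In the young inputs, Ciita of replicate 2 was the lowest at 0.481 CPM (8 counts), with the next at 1.23 CPM.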

How the results depend on the processing

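The 5 member calls in TRAP and the 6 in old late-induced against young inputs held under each scaling, filter and tool tried and with each library left out. With the animal as replicate block, 5 members were called in TRAP, Cd74 at 3.41 ± 0.12 (SE), and the block changed no member's call. Upper quartile scaling and library size alone shifted the median log2 difference of all genes in TRAP from -0.02 to -0.16 and -0.13, and the split from 4442 higher and 4198 lower to 3280 and 6372, and to 3564 and 5748.

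Members called in old early-induced against young inputs were 1, but 0 in females alone, 0 at low Ttr, 5 at high Ttr, 3 with the choroid plexus covariate, and 1 to 2 with a library left out (2 without young input 2 or old early-induced input 12). In old late-induced against young inputs they went from 6 to 5 at high Ttr, where Ciita was not called, and to 3 at low Ttr. Both are fits of fewer libraries. In old late-induced against old early-induced inputs they were 0, but 2 in females and 3 at low Ttr, and DESeq2 gave the members no adjusted p. The interaction gave 0 to 1 with a library left out.

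Signs reversed as follows, in estimates that were not called. Against young, old early-induced H2-Aa was -0.049 at low Ttr and H2-Eb1 -0.29 in females. Between the induction ages at high Ttr, Cd74 was -0.255, H2-Aa -0.25, H2-Ab1 -0.52 and H2-Eb1 -0.34. For males against females, low Ttr gave -0.76 for Cd74, -0.30 for H2-Aa, -0.23 for H2-Ab1, -0.61 for H2-Eb1 and -0.18 for Ciita. High Ttr gave -0.09 for H2-Aa, -0.24 for H2-Eb1, 0.16 for H2-DMb1 and -0.14 for Ciita. The covariate gave -0.13 for Cd74 and -0.27 for H2-Eb1, limma voom -0.155 for Cd74, -0.13 for H2-Eb1 and -0.095 for Ciita, and the early-induced groups alone -0.032 for Ciita. With a library left out, the sex estimate ran from -0.105 to 0.285 for Cd74, -0.142 to 0.197 for H2-Eb1, -0.121 to 0.04 for H2-DMb1 and -0.106 to 0.089 for Ciita, and the interaction of Ciita from -0.136 to 0.271. The cause was not tested.

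Over all genes, calls in old early-induced against young inputs were 3826, but 1198 in females, 1234 at low and 2058 at high Ttr. In old late-induced against young inputs they were 5151, but 2787, 1875 and 2635. Between the induction ages they were 5, but 58 by DESeq2, 3 by limma voom, 182 in females, 0 with only these groups fitted, 101 at low and 0 at high Ttr, and 0 to 164 with a library left out. For sex they were 26, but 64 by DESeq2, 12 in the early-induced groups, 10 at low and 11 at high Ttr. Ciita at 6 to 34 counts a library limits what its values can show.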
